A study of Mus musculus with 12 samples.

Results

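The genes that build the cornified envelope, and the proteases and protease inhibitors that act around it, were followed through the first 2 days of reprogramming in mouse embryonic fibroblasts. Members were taken by gene symbol. They were every gene named Sprr, Lce, Klk followed by a digit, Serpinb or Tmprss11, together with Krtdap, Cnfn, Slurp1, Cdsn, Lor, Ivl, Tgm1, Tgm3, Dsg1a and Dsc1. The rule also names Flg, which is not analysed here. It found 104 members among 23284 gene symbols, and 41 of them reached an RPKM of 1 in 2 or more of the 12 libraries. RPKM is reads per gene scaled to the gene's length and the library's depth, so levels of different genes can be compared per length. The other 63 members lay below that level, and 11 of them were listed at 0 in every library.

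The cornified envelope is a shell of proteins that replaces the plasma membrane when a keratinocyte of the upper epidermis dies. Scaffold proteins such as involucrin (Ivl) and loricrin (Lor), small proline-rich proteins (Sprr) and late cornified envelope proteins (Lce) are joined to each other by transglutaminases (Tgm1, Tgm3). Corneodesmosomes hold the dead cells together until kallikrein-related proteases (Klk) cut them, and clade B serpins (Serpinb) inhibit proteases, mostly inside cells. Many clade B serpins are also made by cells other than keratinocytes, so the name of the family does not make each member an epidermal gene.

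RNA was sequenced in 12 libraries of secondary 1B MEFs, which are fibroblasts that carry reprogramming factors switched on by doxycycline (dox). The cells received an siRNA against c-Myc (labelled sic-Myc, here siMyc), an siRNA against Gcn5 (siGcn5; the gene is Kat2a) or a control siRNA (siControl). Each siRNA was measured after 2 days with dox and without dox, which gave 6 groups of 2 libraries: siMyc with dox, siMyc without dox, siGcn5 with dox, siGcn5 without dox, siControl with dox and siControl without dox. Dox was given after transfection, in mES medium. The medium of the knockdown cells kept without dox is not stated, so an effect of medium and one of dox cannot be told apart. The labels name siRNA pools as well as individual siRNAs and tie neither to these libraries. No label ties a replicate to a culture of its own, so a p-value sets a difference against the spread of the libraries sequenced, and that spread may be technical.

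Myc, the target of siMyc, was at 16.9 and 26.2 RPKM in siMyc cells with dox, at 103 and 129 RPKM in siGcn5 cells with dox and at 174 and 155 RPKM in siControl cells with dox. Kat2a, the target of siGcn5, was at 6.27 and 9.11 RPKM in siGcn5 cells with dox, at 18.1 and 19.4 RPKM in siMyc cells with dox and at 55.7 and 53.1 RPKM in siControl cells with dox. Without dox, Myc was at 4.57 and 4.80 RPKM in siMyc cells, 9.31 and 7.10 RPKM in siGcn5 cells and 21.7 and 17.6 RPKM in siControl cells, and Kat2a was at 1.33 and 1.97 RPKM in siGcn5 cells, 17.6 and 16.5 RPKM in siMyc cells and 23.0 and 20.7 RPKM in siControl cells. Each target was lowest in the cells labelled for its knockdown, and Kat2a was also lower in siMyc cells with dox (log2 change -1.49) than in siControl cells with dox. Myc in turn was lower in siGcn5 cells than in siControl cells. Its means there were 116 and 165 RPKM with dox and 8.20 and 19.6 RPKM without dox, in that order. Reads of an induced transgene and of the mouse gene itself cannot be told apart in a value per gene. Whole reads recovered from the RPKM values came to 65.5 to 188 M reads per library. Both ends of that range were siMyc libraries with dox, replicate 1 at 65.5 M and replicate 2 at 188 M.

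Changes were tested with limma on log2(RPKM + 1) across the 13175 genes that reached an RPKM of 1 in 2 or more libraries. A gene was called at a Benjamini-Hochberg adjusted p under 0.05, and values after ± are the standard error (SE) of a log2 change unless SD is named. Adding 1 to each RPKM understates the change of genes that are low in either group. Of the 41 members tested, 26 reached an RPKM of 1 in no library without dox and so entered the test through libraries with dox alone. For 5 of them (Klk9, Lce1f, Serpinb1b, Serpinb7 and Serpinb9e) the only libraries at 1 or more were those of siMyc with dox. Such members had to differ, so counts over the 41 describe these genes and are read beside the share of all tested genes that were called. Nearest to the limit, Tgm3 (1.02), Serpinb9e (1.02) and Klk11 (1.06) had a second-highest RPKM just above 1, and Serpinb10-ps (0.963), Lce1l (0.927) and Lor (0.917) one just below it.

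In all, the 104 members took 0.237% and 0.218% of gene reads in siMyc cells with dox, 0.0887% and 0.0892% in siGcn5 cells with dox, and 0.0909% and 0.0857% in siControl cells with dox. Without dox their share was 0.0704% and 0.0620% in siMyc cells, 0.0494% and 0.0513% in siGcn5 cells, and 0.0510% and 0.0512% in siControl cells. The siMyc libraries with dox thus stood above all 10 others in this share. One gene, Cnfn, made up 51.4% and 50.8% of the members' summed RPKM in siMyc cells with dox, 14.9% and 16.1% in siGcn5 cells with dox, and 20.4% and 16.5% in siControl cells with dox. Without Cnfn the summed RPKM was 1021 and 947 in siMyc cells with dox, 546 and 586 in siGcn5 cells with dox, and 644 and 631 in siControl cells with dox.

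**Figure D1:**
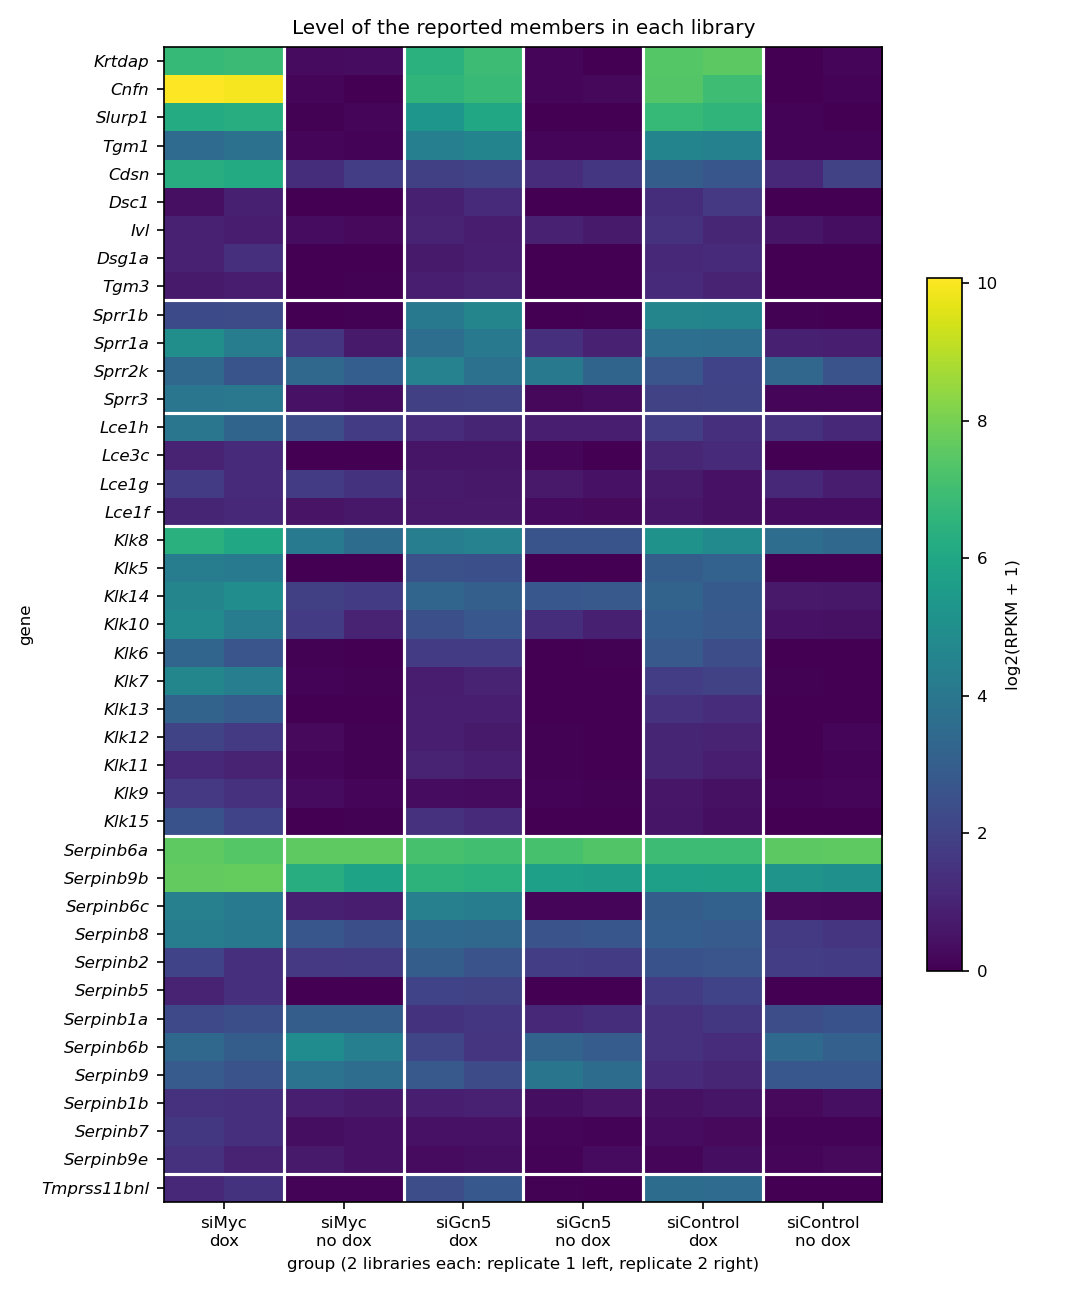
Level of the 41 reported members, as log2(RPKM + 1), in each of the 12 libraries; columns are libraries in pairs by group, rows are genes by family, and lighter colours are higher. Most envelope genes and kallikreins are dark in the libraries without dox, and Cnfn is lightest in the 2 siMyc libraries with dox, at 1081 and 978 RPKM.

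The first question was what 2 days of dox did to these genes, with each siRNA taken by itself. In siMyc cells 34 of the 41 members rose and 3 fell, where 28.9% of all tested genes rose and 15.9% fell. In siGcn5 cells 31 rose and 2 fell, where 36.0% of all tested genes rose and 22.4% fell. In siControl cells 32 rose and 4 fell, where 46.1% of all tested genes rose and 27.9% fell. The median log2 change of the 41 was 1.52 in siMyc cells, 0.85 in siGcn5 cells and 1.18 in siControl cells, beside 0.08, 0.08 and 0.17 over all tested genes in the same order. These 3 comparisons share no library, and 28 members rose in each of them while 2, Serpinb6b and Serpinb9, fell in each. The members of all 3 were chosen by the same filter over the 12 libraries. Of the 41, 26 were below 1 RPKM in every library without dox. The filter thus favoured a rise, and the 28 only describe these genes. For 4 members in the siGcn5 arm and 4 in the siControl arm every library without dox was at 0. With those set to 3 reads per library the median was 0.81 in siGcn5 cells and 1.18 in siControl cells.

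On the log2(RPKM + 1) scale the largest changes with dox in each arm were those of Krtdap, Cnfn and Slurp1, which were near 0 without it. Krtdap, a secreted protein of differentiating keratinocytes, reached 106 and 115 RPKM in siMyc cells with dox, against 0.238 and 0.269 RPKM in siMyc cells without dox. In the siGcn5 arm Krtdap was at 85.0 and 119 RPKM with dox and 0.0885 and 0 RPKM without dox, and in the siControl arm at 170.2 and 185 RPKM with dox and 0 and 0.146 RPKM without dox. Its dox libraries lay above its libraries without dox in every arm, by log2 6.47 ± 0.14, 6.61 ± 0.14 and 7.38 ± 0.14 for siMyc, siGcn5 and siControl (adjusted p 1.93e-10, 3.94e-10 and 1.29e-10). Cnfn, which encodes cornifelin, an envelope protein, rose by log2 9.92 ± 0.13 in siMyc cells, 6.50 ± 0.13 in siGcn5 cells and 7.10 ± 0.13 in siControl cells. Without dox it was at 0.133 and 0 RPKM in siMyc cells, 0.134 and 0.176 RPKM in siGcn5 cells and 0.0205 and 0.0829 RPKM in siControl cells. Slurp1, a secreted Ly6-type protein whose human counterpart is mutated in a palmoplantar keratoderma, rose by log2 6.14, 5.66 and 6.62 in siMyc, siGcn5 and siControl cells.

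Structural proteins were more mixed. Sprr1b and Sprr1a, which bridge other envelope proteins, rose in each arm, Sprr1b by log2 2.27 in siMyc cells, 4.31 in siGcn5 cells and 4.52 in siControl cells. Sprr1a rose by log2 3.50, 2.70 and 2.79, and Sprr3 by 3.59, 1.67 and 1.87, in the same order of arms. Sprr2k was at an RPKM of 1 or more in all 12 libraries and was not called for dox in any arm. Ivl, the early scaffold protein, rose by log2 0.57 in siMyc cells and 0.78 in siControl cells, and its change in siGcn5 cells was 0.05 (adjusted p 0.749, limma). Among the late envelope genes, Lce3c rose in each arm (log2 1.08, 0.52 and 1.14), and Lce1h rose in siMyc cells by 1.52, with 0.30 in siGcn5 cells and 0.32 in siControl cells not called. Near-identical copies share reads, and the counting could have divided or discarded these. Values within the Sprr2, Lce1, Klk1b, Serpinb6 and Serpinb9 groups are therefore uncertain, and Sprr2a1 and Sprr2a2 had identical values.

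Both transglutaminases rose. Tgm1, which cross-links the envelope at the membrane, was at 10.4 and 12.5 RPKM with dox and 0.138 and 0.0588 RPKM without dox in siMyc cells. It was at 19.4 and 22.2 RPKM with dox and 0.134 and 0.139 RPKM without dox in siGcn5 cells, and at 22.2 and 20.5 RPKM with dox and 0.0790 and 0.0798 RPKM without dox in siControl cells. In every arm the libraries with dox lay far above those without (log2 3.50 ± 0.10, 4.26 ± 0.10 and 4.37 ± 0.10 for siMyc, siGcn5 and siControl). Tgm3, which cross-links soluble envelope precursors, rose less, by log2 0.73, 0.89 and 1.09, to levels near 1 RPKM. The desmosomal cadherins of the upper epidermis also rose in each arm, Dsc1 by log2 0.63, 1.03 and 1.50, and Dsg1a by 1.14, 0.78 and 1.18. Cdsn, which encodes corneodesmosin, the adhesive protein of corneodesmosomes, rose in siMyc cells (log2 4.65 ± 0.26) and in siControl cells (1.31 ± 0.26), and was not called in siGcn5 cells (0.56 ± 0.26, adjusted p 0.0838). Without siMyc dox replicate 2 the Dsc1 call in siMyc cells was lost (adjusted p 0.0909).

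All 11 reported Klk genes rose with dox in siMyc cells and in siControl cells, where 28.9% and 46.1% of all tested genes rose, and 10 of 11 rose in siGcn5 cells, where 36.0% did, with Klk9 not called there (adjusted p 0.0622, limma). Of the 11, 8 were below 1 RPKM in every library without dox and entered the test through libraries with dox, so the filter favoured a rise and the count only describes these genes. Klk5, which in human skin activates other kallikreins, was at 18.1 and 16.8 RPKM in siMyc cells with dox, against 0.0103 and 0 RPKM in siMyc cells without dox. In siControl cells Klk5 was at 6.91 and 7.92 RPKM with dox and 0 RPKM without dox, at least 435-fold higher if each library without dox held 3 reads. Klk7, which cuts corneodesmosome proteins, rose by log2 4.38 ± 0.11 in siMyc cells, 0.87 ± 0.11 in siGcn5 cells and 1.86 ± 0.11 in siControl cells. Klk8, at 11.2 and 9.65 RPKM in siControl cells without dox, was the only Klk gene with an RPKM of 1 or more in all 12 libraries. The rise of Klk15 in siControl cells ended without siControl dox replicate 1 (adjusted p 0.0833), and that of Klk14 in siGcn5 cells without 7 of the 12 libraries in turn (highest adjusted p 0.225). Tmprss11bnl, named for a family of membrane-bound serine proteases, rose by log2 1.21 in siMyc cells, 2.54 in siGcn5 cells and 3.54 in siControl cells. The 15 genes Klk1 and Klk1b, the glandular kallikreins of rodents, stayed near 0, since 9 were listed at 0 in every library and the highest value of any was 0.106 RPKM.

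The serpins moved both ways. In siMyc cells 7 of 12 reported Serpinb genes rose and 3 fell, where 28.9% of all tested genes rose and 15.9% fell. In siGcn5 cells 8 rose and 2 fell (36.0% and 22.4% of all), and in siControl cells 6 rose and 4 fell (46.1% and 27.9% of all). Of the 12, 5 were below 1 RPKM in every library without dox: Serpinb1b, Serpinb5, Serpinb6c, Serpinb7 and Serpinb9e. The filter thus favoured their rise, and the counts only describe these genes. Serpinb6c rose by log2 3.45 in siMyc cells, 4.13 in siGcn5 cells and 2.83 in siControl cells, and Serpinb5, which encodes maspin, by 1.19, 1.99 and 1.89. Serpinb9, an inhibitor of granzyme B, fell by log2 0.98, 1.17 and 1.60, and Serpinb6b fell by 1.43, 1.28 and 1.92. Serpinb1a, an inhibitor of neutrophil proteases, fell in siMyc cells (log2 -0.64) and siControl cells (-0.93) and rose in siGcn5 cells (0.31), a call lost without siGcn5 no-dox replicate 1 or siGcn5 dox replicate 2 (highest adjusted p 0.212). The small rises of Serpinb7 (0.21) and Lce1f (0.19) in siControl cells were lost on leaving out any of 8 libraries for Serpinb7 and 7 for Lce1f (highest adjusted p 0.154 and 0.237), and turned negative after quantile normalization. Serpinb9e rose in siMyc cells (log2 0.62), a call lost without siMyc no-dox replicate 2 (adjusted p 0.0539). Quantile normalization ended the dox calls of Ivl, Dsc1, Lce1f and Serpinb9e in siMyc cells, of Dsg1a, Lce3c, Serpinb1b, Serpinb1a, Klk14, Serpinb7 and Lce1f in siGcn5 cells, and of Klk9, Klk15, Serpinb7 and Lce1f in siControl cells.

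**Figure D2:**
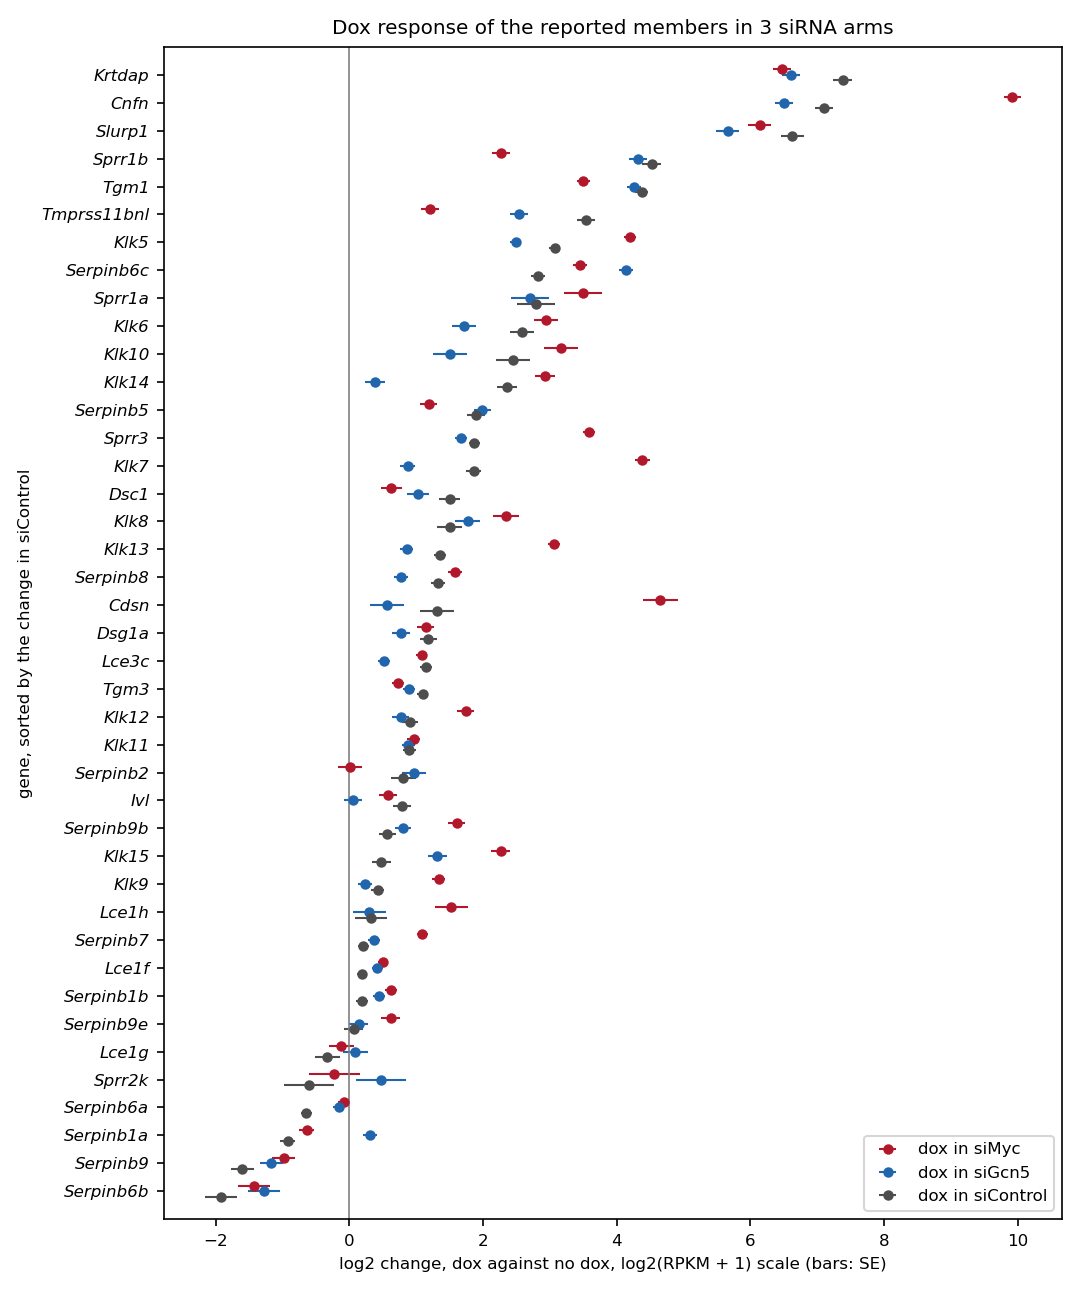
Log2 change with dox against no dox on the log2(RPKM + 1) scale for the 41 reported members in siMyc, siGcn5 and siControl cells; points are limma estimates and bars their SE, with genes sorted by the change in siControl cells. Krtdap, Cnfn and Slurp1 lie furthest to the right, and Sprr1b and Tmprss11bnl show the siMyc point well left of the other points.

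Fibroblast genes moved the other way with dox. The summed RPKM of 8 fibroblast markers, all of them present, was 4915 to 4961 in siMyc cells with dox and 8848 to 8882 in siMyc cells without dox. It was 3577 to 4166 with dox and 7663 to 7959 without dox in siGcn5 cells, and 2558 to 2939 with dox and 9871 to 9877 without dox in siControl cells. Whether fewer cells of a type or less RNA per cell changed cannot be told apart in bulk RNA. The part of this shift in the results above was not tested.

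Markers of other cell types were low but for 1 gene. Of 5 neural markers only Tubb3 reached 1 RPKM in 2 libraries. The neural sum was 128 to 157 RPKM with dox and 21.6 to 24.5 without dox in siMyc cells, 108 to 120.0 with dox and 14.0 to 15.0 without dox in siGcn5 cells, and 147 to 153 with dox and 21.5 to 22.4 without dox in siControl cells. The sum of 6 endothelial markers, 3 of them at 1 RPKM or more, was 8.29 to 8.72 RPKM with dox and 3.98 to 4.98 without dox in siMyc cells, 12.0 to 12.3 with dox and 3.30 to 3.54 without dox in siGcn5 cells, and 9.16 to 10.1 with dox and 2.61 to 3.17 without dox in siControl cells. Both sums were higher with dox in every arm, as were those of 7 blood and macrophage markers (at most 13.3 RPKM, 4 at 1 RPKM or more) and 8 trophoblast markers (at most 2.78 RPKM, 0 at 1 RPKM or more in 2 libraries). The markers of a sum did not move together. In siControl cells mean Tek was 8.11 RPKM with dox and 0.0396 without, but Kdr (0.830 and 1.37) and Emcn (0.290 and 1.38) were lower with dox. Among blood markers there, Cd68 rose (4.89 with dox and 2.01 without) and Lyz2 fell (1.09 and 1.85). The trophoblast marker Prl3b1 was at 0 in all 12 libraries, and the pan-leukocyte gene Ptprc did not exceed 0.149 RPKM. The sum of 6 mast cell markers was at most 1.30 RPKM and that of 5 melanocyte markers at most 9.87 RPKM, both in siGcn5 cells without dox. The part of these markers in the results was not tested.

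The second question was how knockdown of Myc changed these genes in cells with dox. With siMyc, 26 of the 41 members were higher than in siControl cells with dox and 10 were lower, where 37.7% of all tested genes rose and 37.1% fell. The median log2 change of the 41 was 0.90, beside 0.02 over all tested genes. For Klk9, Lce1f, Serpinb1b, Serpinb7 and Serpinb9e, which passed the filter through the siMyc libraries with dox alone, the direction was fixed. Leaving out siMyc dox replicate 1 or 2 left 35 or 36 members to test, since fewer then passed the limit of 1 RPKM, and 29 or 30 of those were called. The members called down were mostly not proteases: they were Sprr1b, Ivl, Tgm1, Tgm3, Dsc1, Krtdap, Slurp1, Serpinb2 and Serpinb5, with Tmprss11bnl the 1 protease gene.

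The highest gene of the group was also among those with the largest increase. Cnfn had 1081 and 978 RPKM in siMyc cells with dox, against 165 and 124 RPKM in siControl cells with dox. Both siMyc libraries lay above both siControl libraries, and the log2 change was 2.84 ± 0.13 (adjusted p 1.09e-07, limma), a ratio of means of 7.12. Cdsn had 77.0 and 71.2 RPKM in siMyc cells with dox, against 6.91 and 5.45 RPKM in siControl cells with dox. That was a log2 change of 3.39 ± 0.26 (adjusted p 1.22e-06), a ratio of 12.0, with no overlap between the groups. Without dox Cdsn was at 1.48 and 2.59 RPKM in siMyc cells and 1.15 and 2.87 RPKM in siControl cells, values that overlapped.

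The proteases that act on corneodesmosomes rose with it. Klk7 had 23.8 and 18.7 RPKM in siMyc cells with dox, against 2.55 and 2.93 RPKM in siControl cells with dox, a log2 change of 2.56 ± 0.11 (adjusted p 8.84e-08). Klk5 had 18.1 and 16.8 RPKM in siMyc cells with dox and 6.91 and 7.92 RPKM in siControl cells with dox (log2 1.13 ± 0.08). Klk14, another kallikrein found in the horny layer of human skin, had 23.2 and 29.9 RPKM in siMyc cells with dox and 8.19 and 6.14 RPKM in siControl cells with dox (1.75 ± 0.15). In none of the 3 did the groups overlap. Klk15, Klk13, Klk10, Klk8, Klk9 and Klk12 were also higher with siMyc, by log2 1.81, 1.72, 1.60, 1.21, 1.00 and 0.89. Klk6 (0.37, adjusted p 0.0846) and Klk11 (0.13, adjusted p 0.228) were not called, so 9 of 11 reported Klk genes rose and none fell, beside 37.7% up and 37.1% down over all tested genes. Klk9 had entered the test through the siMyc libraries with dox alone, so its direction was fixed by the filter. Klk8 was the most abundant, at 84.3 and 64.2 RPKM in siMyc cells with dox and 35.2 and 27.6 RPKM in siControl cells with dox.

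Small proline-rich and late envelope genes divided. Sprr3 had 14.6 and 15.6 RPKM in siMyc cells with dox, against 2.92 and 3.25 RPKM in siControl cells with dox, a log2 change of 1.98 ± 0.09 (adjusted p 9.52e-08). Sprr1b moved the other way, with 3.74 and 4.12 RPKM in siMyc cells with dox and 23.1 and 22.4 RPKM in siControl cells with dox (-2.27 ± 0.14, adjusted p 3.79e-07). Neither gene's groups overlapped. Sprr1a had 30.2 and 18.1 RPKM in siMyc cells with dox and 11.7 and 11.4 RPKM in siControl cells with dox (0.96 ± 0.28), and its call was lost without siMyc dox replicate 1 (adjusted p 0.104). Lce1h had 14.3 and 8.53 RPKM in siMyc cells with dox and 2.52 and 1.60 RPKM in siControl cells with dox (2.00 ± 0.25), and Lce1g and Lce1f were higher by 0.90 and 0.56. Sprr2k (0.64) and Lce3c (-0.06) were not called.

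Sprr1b, Sprr3 and Sprr1a lie next to each other among the members on chromosome 3 and were read together with their promoters, since 1 of the 3 moved against its neighbours. The 150 bases before the annotated start are shown for these and for 3 genes of chromosome 7, Cnfn and Klk7, which were higher with siMyc, and Krtdap, which was lower. The sequences are from RefSeq on build GRCm38.p6, written 5′ to 3′ in the direction of the gene, and each ends 1 base before the start. Capitals mark TGANTCA, a loose form of the AP-1 site, and CCACCC or its complement GGGTGG, the CACCC box that Kruppel-like factors bind. The windows are chr3:92438780-92438929 (minus strand) for Sprr1b, chr3:92458721-92458870 (minus) for Sprr3, chr3:92485882-92486031 (minus) for Sprr1a, chr7:25369725-25369874 (minus) for Cnfn, chr7:43811144-43811293 (plus) for Klk7 and chr7:30787755-30787904 (plus) for Krtdap.
Sprr1b: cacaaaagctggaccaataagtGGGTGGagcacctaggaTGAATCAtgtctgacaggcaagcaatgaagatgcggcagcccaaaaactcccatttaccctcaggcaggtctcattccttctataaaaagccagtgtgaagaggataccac
Sprr3: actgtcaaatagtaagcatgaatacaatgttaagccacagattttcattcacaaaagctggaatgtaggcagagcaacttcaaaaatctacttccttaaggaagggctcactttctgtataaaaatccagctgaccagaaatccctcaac
Sprr1a: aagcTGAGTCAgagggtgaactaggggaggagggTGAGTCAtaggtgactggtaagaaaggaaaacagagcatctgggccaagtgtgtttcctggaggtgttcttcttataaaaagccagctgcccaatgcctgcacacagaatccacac
Cnfn: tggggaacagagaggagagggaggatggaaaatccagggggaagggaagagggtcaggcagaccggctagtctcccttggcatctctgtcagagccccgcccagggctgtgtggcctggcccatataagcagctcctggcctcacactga
Klk7: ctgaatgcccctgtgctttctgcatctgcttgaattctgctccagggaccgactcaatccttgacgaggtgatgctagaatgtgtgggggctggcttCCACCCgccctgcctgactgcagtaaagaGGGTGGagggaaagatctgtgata
Krtdap: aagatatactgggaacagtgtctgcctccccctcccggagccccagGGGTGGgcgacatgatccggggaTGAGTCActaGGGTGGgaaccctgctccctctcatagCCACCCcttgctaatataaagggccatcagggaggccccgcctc
Within these stretches TGANTCA was found 2 times in Sprr1a, 1 time in Sprr1b and 1 time in Krtdap, and not in Sprr3, Cnfn or Klk7. The usual AP-1 site has C or G as its middle base, which the match in Sprr1b does not, so counts of TGANTCA take in letters that are not that site. CCACCC or GGGTGG was found 3 times in Krtdap, 2 times in Klk7 and 1 time in Sprr1b.

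Over the whole promoter table, which holds 300 bases per window (250 before and 50 after each start), 35 of the 41 members were matched by symbol, with 41 windows. Both strands were searched. TGANTCA was in 10 of the 41 windows (24.4%), beside 7.81% of all 32851 windows. It was in 3 of 26 windows of members higher with siMyc (11.5%) and in 6 of 9 windows of members lower with siMyc (66.7%), from 24 and 7 genes. CCACCC was in 24 of 41 windows (58.5%), beside 31.5% of all windows. The E-box CACGTG, to which Myc and Max bind, was in 0 of 41 windows, beside 7.15% of all windows. The octamer ATGCAAAT was in 1 of 41 (2.44%, beside 1.74%), and the Grainyhead-like site AACCGGTT in 0 of 41 (beside 0.146%). A match describes the letters in a window and is not a measured site. An absence covers these letters in these windows only.

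Of the envelope cross-linkers and adhesion genes, several were lower with siMyc. Tgm1 had 10.4 and 12.5 RPKM in siMyc cells with dox, against 22.2 and 20.5 RPKM in siControl cells with dox (-0.85 ± 0.10, adjusted p 2.97e-05). Krtdap had 106 and 115 RPKM in siMyc cells with dox and 170.2 and 185 RPKM in siControl cells with dox (-0.68 ± 0.14, adjusted p 0.00121), with no overlap, although a pseudocount of 0.1 in place of 1 ended the call (adjusted p 0.127). Dsc1 (-0.86), Tgm3 (-0.34) and Ivl (-0.39) were lower too, and Dsg1a was not called (-0.01 ± 0.13). The Ivl call was lost without siControl dox replicate 1 or siMyc dox replicate 2 (highest adjusted p 0.199). Slurp1 (-0.42, adjusted p 0.0455) stood at the edge, and its call was lost without any of 10 of the 12 libraries in turn (highest adjusted p 0.188). Tmprss11bnl had 1.19 and 1.80 RPKM in siMyc cells with dox, against 10.8 and 10.5 RPKM in siControl cells with dox (-2.23 ± 0.13, adjusted p 3.71e-07).

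Among the inhibitors 10 of 12 reported Serpinb genes were higher with siMyc and 2 were lower, beside 37.7% up and 37.1% down over all tested genes. The direction of 3 of the 10, Serpinb1b, Serpinb7 and Serpinb9e, was fixed by the filter, which they passed through the siMyc libraries with dox alone. Serpinb9b had 199.7 and 205 RPKM in siMyc cells with dox, against 50.6 and 51.9 RPKM in siControl cells with dox (1.96 ± 0.12, adjusted p 4.22e-07). Serpinb6a, the other abundant serpin, had 189.6 and 171 RPKM in siMyc cells with dox and 119.9 and 119.7 RPKM in siControl cells with dox (0.59 ± 0.08). Neither pair of groups overlapped. In the GRCm38 gene table Serpinb6a overlaps Nqo2, Ripk1 and 1110046J04Rik, Serpinb9b overlaps Gm36099, Serpinb9 overlaps Gm36181, Serpinb7 overlaps the snoRNA Gm24553, Tgm3 overlaps Gm52561 and Mir6339, and Dsg1a overlaps Gm31237. How strand was used in counting is not given in the sources used here, so reads of such partners cannot be told apart. Serpinb6b (1.84), Serpinb9 (1.61), Serpinb7 (1.23), Serpinb6c (1.21), Serpinb8 (1.20), Serpinb9e (0.94), Serpinb1b (0.89) and Serpinb1a (0.79) were higher as well. Serpinb2, which encodes the inhibitor of plasminogen activators PAI-2, and Serpinb5 were lower, with log2 changes of -0.89 ± 0.18 and -0.70 ± 0.13.

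**Figure D3:**
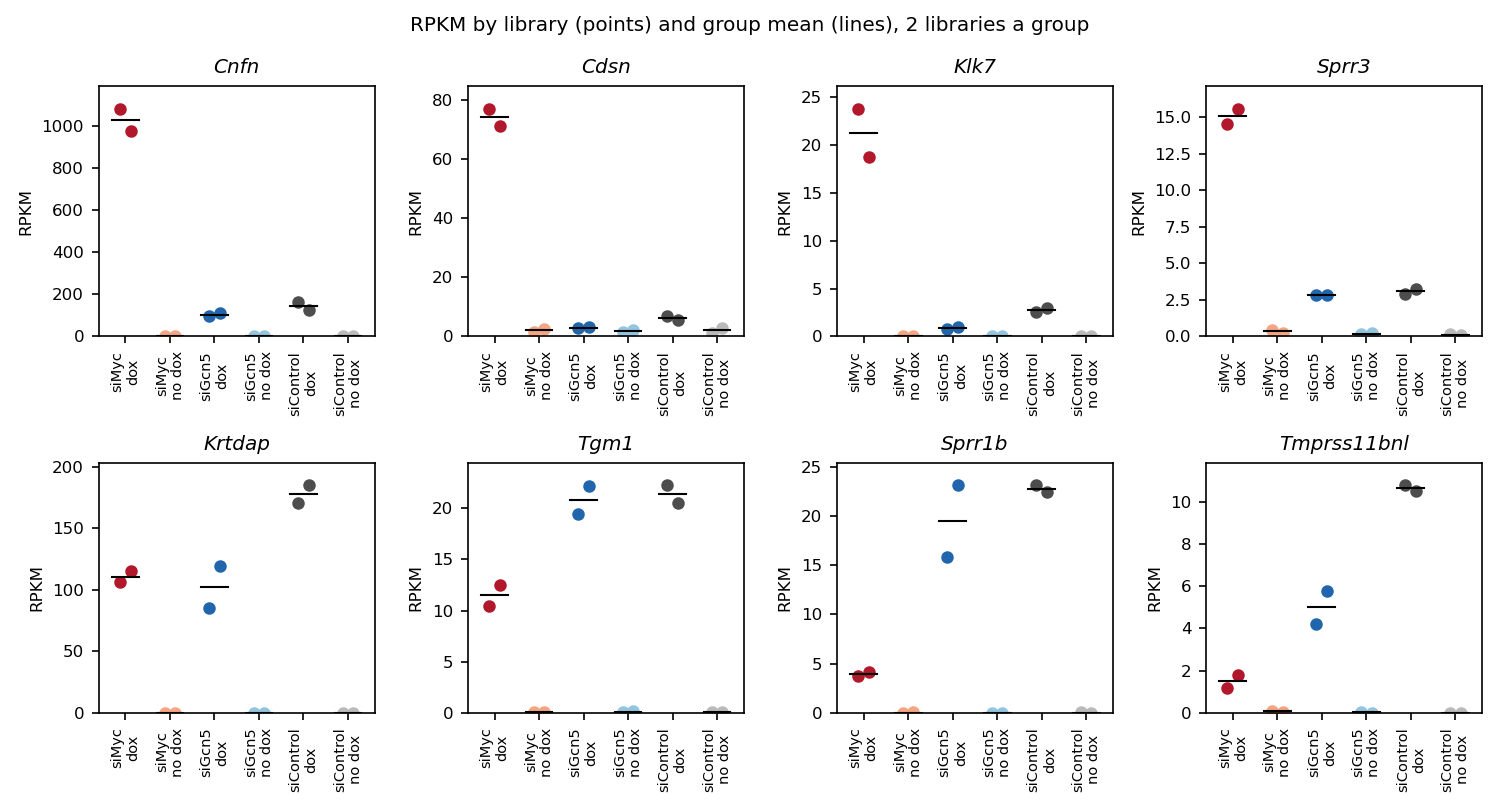
RPKM of 8 members in each library (points) with the group mean (lines), 2 libraries a group, on linear axes that start at 0. Cnfn, Cdsn, Klk7 and Sprr3 are highest in siMyc cells with dox, and Krtdap, Tgm1, Sprr1b and Tmprss11bnl are lower there than in siControl cells with dox.

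The third question was how knockdown of Gcn5, a histone acetyltransferase of the SAGA complex, changed these genes in cells with dox. With siGcn5, 7 of the 41 members were higher than in siControl cells with dox and 14 were lower, where 31.4% of all tested genes rose and 24.9% fell. The median log2 change was -0.10, beside 0.05 over all tested genes. The siMyc and siGcn5 comparisons share the siControl libraries with dox, so their values stand side by side and their likeness is not a result.

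Lower members included secreted proteins and proteases. Klk7 had 0.756 and 0.972 RPKM in siGcn5 cells with dox, against 2.55 and 2.93 RPKM in siControl cells with dox (-1.01 ± 0.11, adjusted p 8.94e-05). Slurp1 had 38.7 and 63.1 RPKM in siGcn5 cells with dox and 106 and 95.1 RPKM in siControl cells with dox (-1.01 ± 0.17, adjusted p 8.06e-04). Tmprss11bnl had 4.21 and 5.78 RPKM in siGcn5 cells with dox and 10.8 and 10.5 RPKM in siControl cells with dox (-0.97 ± 0.13). In these 3 genes the siGcn5 libraries lay below the siControl libraries. Klk6, Klk8, Klk5 and Klk13 were lower, with log2 changes of -0.84, -0.62, -0.58 and -0.50, while Klk15 rose (0.85, adjusted p 7.13e-04). Thus 5 of 11 reported Klk genes fell, where 24.9% of all tested genes fell. Krtdap (-0.81), Lce3c (-0.58), Cdsn (-0.84), Dsc1 (-0.47), Cnfn (-0.46), Dsg1a (-0.39) and Ivl (-0.38) were lower too. Calls of Cdsn, Cnfn and Klk8 were lost without siControl dox replicate 1 or siGcn5 dox replicate 1 (highest adjusted p 0.103, 0.117 and 0.137). Those of Dsc1 and Dsg1a were lost without siControl dox replicate 2 or siGcn5 dox replicate 1 (0.220 and 0.145), and that of Ivl without siControl dox replicate 1 or siGcn5 dox replicate 2 (0.260). A pseudocount of 0.1 ended the calls of Cnfn, Krtdap, Dsc1 and Ivl (adjusted p up to 0.260 for Cnfn and 0.0930 for Krtdap), and voom those of Lce3c (0.0566), Dsc1 and Ivl.

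Most members that rose with siGcn5 were serpins. Serpinb9 had 6.05 and 4.02 RPKM in siGcn5 cells with dox, against 1.27 and 1.09 RPKM in siControl cells with dox (1.45 ± 0.17, adjusted p 1.27e-04). Serpinb6c had 19.8 and 18.2 RPKM in siGcn5 cells with dox and 6.90 and 7.82 RPKM in siControl cells with dox (1.26 ± 0.11, adjusted p 2.35e-05). Both genes had non-overlapping groups. Serpinb9b (0.75), Serpinb8 (0.47) and Serpinb1b (0.36) were higher as well, the last not without siControl dox replicate 1 (adjusted p 0.0539). Thus 5 of 12 reported Serpinb genes rose and none fell, where 31.4% of all tested genes rose and 24.9% fell, and the count only describes these genes. Sprr2k had 21.0 and 13.0 RPKM in siGcn5 cells with dox, against 5.38 and 3.04 RPKM in siControl cells with dox (1.79 ± 0.38, adjusted p 0.00260). The siGcn5 libraries lay above the siControl libraries. Sprr1b (-0.24 ± 0.14), Tgm1 (-0.04 ± 0.10) and Sprr3 (-0.10 ± 0.09) were not called with siGcn5.

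**Figure D4:**
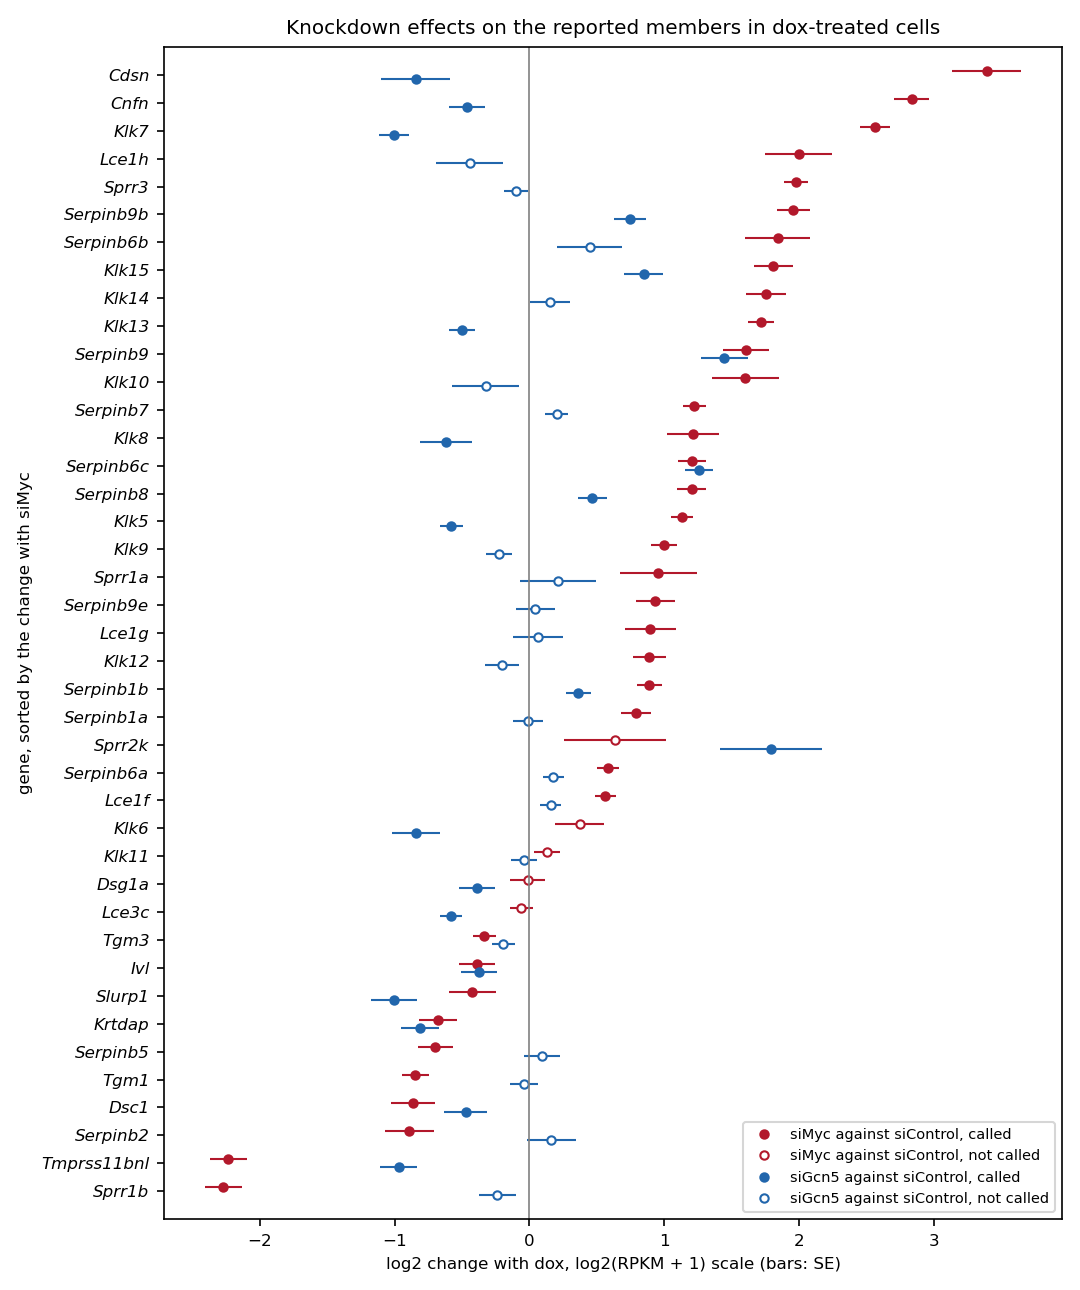
Log2 change in cells with dox for siMyc against siControl and siGcn5 against siControl, on the log2(RPKM + 1) scale, for the 41 reported members sorted by the siMyc change; bars are SE and filled points are called at an adjusted p under 0.05. For Cdsn, Cnfn and Klk7 the siMyc point is above 2 and the siGcn5 point below 0, and for Sprr1b and Tmprss11bnl the siMyc point is below -2.

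The knockdowns were also set against each other in cells with dox. Between siMyc and siGcn5, 28 of the 41 members were higher with siMyc and 6 were lower, where 27.3% of all tested genes were higher and 38.6% lower. The median log2 difference was 0.75, beside -0.09 over all tested genes. Klk9, Lce1f, Serpinb1b, Serpinb7 and Serpinb9e had entered the test through the siMyc libraries with dox alone, so their direction was fixed by the filter. Cdsn had 77.0 and 71.2 RPKM in siMyc cells with dox and 2.79 and 3.18 RPKM in siGcn5 cells with dox (4.24 ± 0.26, adjusted p 5.78e-07). Klk7 differed by 3.57 ± 0.11 and Cnfn by 3.30 ± 0.13, and 10 of 11 reported Klk genes were higher with siMyc, all but Klk11 (0.17). The 6 that were lower with siMyc were Sprr1b (-2.03), Tmprss11bnl (-1.26), Sprr2k (-1.16), Serpinb2 (-1.05), Tgm1 (-0.81) and Serpinb5 (-0.79). Calls of Sprr2k, Dsg1a and Slurp1 were lost without siMyc dox replicate 2 or siGcn5 dox replicate 1 (highest adjusted p 0.146, 0.276 and 0.0616), and that of Sprr1a without any of 6 libraries in turn (0.294). Voom ended that of Lce3c (0.0572).

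Without dox fewer members were called for the knockdowns. Of the 41 members, 26 were below 1 RPKM in every library without dox. Adding 1 to such values leaves little room for a call, and values near 0 cannot fall. The counts without dox are therefore not comparable with those with dox. With siMyc 13 of 41 members were higher than in siControl cells without dox and 0 were lower, where 12.8% of all tested genes were called up and 10.7% down. Of the 13, 8 were serpins: Serpinb6b, Serpinb9, Serpinb8, Serpinb9b, Serpinb6c, Serpinb1a, Serpinb1b and Serpinb7. Serpinb6b had 28.9 and 19.3 RPKM in siMyc cells without dox, against 10.0 and 7.48 RPKM in siControl cells without dox (1.35 ± 0.24, adjusted p 0.00399). Klk14 (1.19), Klk10 (0.89), Lce1h (0.80), Lce1g (0.69) and Lce1f (0.25) made up the rest. The count fell to 6 without siMyc no-dox replicate 1, to 7 without siControl no-dox replicate 1 and to 8 without siControl no-dox replicate 2. The calls of Klk14, Serpinb6b, Serpinb6c, Serpinb8, Serpinb9 and Serpinb9b were kept without each of the 12 libraries in turn. No member was called down by limma, and 0 had an unadjusted p under 0.05 in that direction. Voom on recovered reads also called 0 down and 15 up, and a pseudocount of 0.1 in place of 1 called 0 down and 17 up.

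With siGcn5 5 of 41 members were higher than in siControl cells without dox and 3 were lower, where 36.9% of all tested genes were called up and 20.4% down. Klk14 had 5.72 and 6.12 RPKM in siGcn5 cells without dox, against 0.608 and 0.556 RPKM in siControl cells without dox (2.13 ± 0.15, adjusted p 6.37e-06). The groups did not overlap, and with dox Klk14 was at 8.77 and 7.28 RPKM in siGcn5 cells and 8.19 and 6.14 RPKM in siControl cells, which did. Serpinb8 (1.02), Serpinb9 (1.02), Serpinb9b (0.52) and Ivl (0.35) were also higher. Serpinb1a (-1.24), Klk8 (-0.89) and Serpinb6a (-0.31) were lower. The call of Serpinb6a was lost without siControl no-dox replicate 2 or siGcn5 no-dox replicate 1 (highest adjusted p 0.0825), and that of Ivl without any of 6 libraries in turn (0.255).

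Whether the dox response itself differed between siRNAs was tested with an interaction term. With siMyc the response was larger than in siControl cells for 19 members and smaller for 8, where 24.8% of all tested genes were called up and 29.3% down. Klk9, Lce1f, Serpinb1b, Serpinb7 and Serpinb9e were among the 19. They had passed the filter through the siMyc libraries with dox alone, which favoured that direction, so the counts only describe these genes. The term was 3.34 ± 0.36 for Cdsn, 2.82 ± 0.19 for Cnfn and 2.52 ± 0.16 for Klk7, and -2.32 ± 0.19 for Tmprss11bnl and -2.25 ± 0.19 for Sprr1b, all on the log2(RPKM + 1) scale. With siGcn5 the response was larger for 4 members and smaller for 12, where 11.4% of all tested genes were called up and 14.5% down. The term was -1.98 ± 0.21 for Klk14 and 1.31 ± 0.15 for Serpinb6c. With a pseudocount of 0.1 the counts called were 22 for siMyc and 14 for siGcn5, and Klk14 and Serpinb6c turned negative for siMyc. With voom on recovered reads 8 of the 27 siMyc calls were kept (Cdsn, Klk8, Krtdap, Serpinb2, Serpinb6a, Serpinb9b, Tgm3 and Tmprss11bnl) and 6 of the 16 siGcn5 calls (Ivl, Klk14, Serpinb1a, Serpinb6a, Serpinb6c and Serpinb8). Cnfn, Klk7 and Sprr1b, each near 0 RPKM without dox, were not called for siMyc by voom (adjusted p 0.0669, 0.0535 and 0.540). The siGcn5 count was 9 without siControl no-dox replicate 2 or siGcn5 no-dox replicate 1, and 10 without siControl dox replicate 1.

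The position of the genes was compared with their values, since most members sit in clusters. By the GRCm38 gene table, which matched 102 of the 104 members, 35 lie on chromosome 3, 29 on chromosome 7, 15 on chromosome 13 and 11 on chromosome 1. On chromosome 7 the order runs Klk14, Klk13, Klk12, Klk11, Klk10, Klk9, Klk8, Klk7, Klk6, Klk5, Klk4, Klk15 and then the Klk1b genes and Klk1. All of the first 12 but Klk4, which peaked at 0.271 RPKM, were reported members. On chromosome 3, 9 of 35 members were reported, and 11 of the 15 Sprr genes and 14 of the 18 Lce genes stayed below the limit. Among members below it, 7 reached an RPKM of 1 in 1 library: Lor (1.43), Serpinb10-ps (1.32), Sprr2b (1.22), Lce1l (1.19), Serpinb11 (1.06), Lce1a1 (1.06) and Serpinb9g (1.06), each given by its highest RPKM. Loricrin, the main protein of the epidermal envelope, was thus at 1.43 and 0.917 RPKM in siMyc cells with dox, the group in which Cnfn was at 1081 and 978 RPKM. The 6 other Tmprss11 genes stayed at or below 0.803 RPKM.

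**Figure D5:**
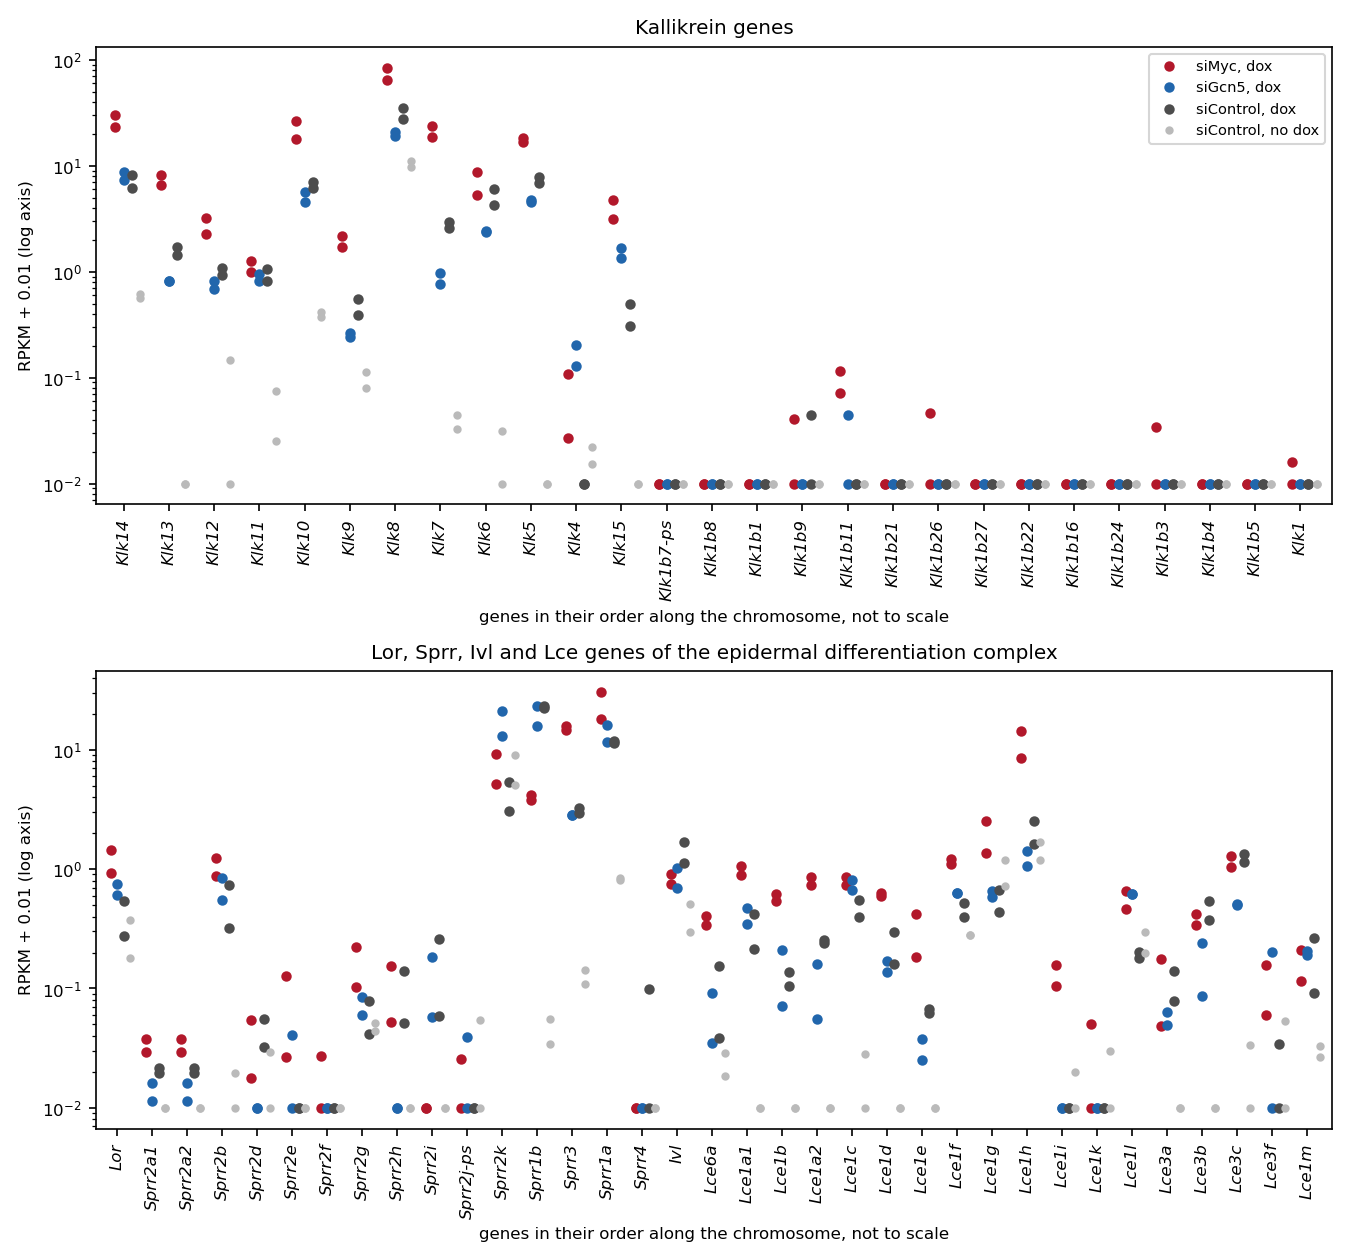
RPKM + 0.01 on a log axis for the kallikrein genes (top) and the Lor, Sprr, Ivl and Lce genes (bottom), in their order along the chromosome and not to scale, for siMyc, siGcn5 and siControl cells with dox and siControl cells without dox; each point is 1 library. The reported Klk genes from Klk14 to Klk15 lie above the no-dox points, while Klk4 and the Klk1b genes stay near 0, and siMyc points lie below siControl points at Sprr1b and above them at its neighbour Sprr3.

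Other genes of the same pathway, taken from 4 lists by name, moved in part like the members. Over all tested genes 46.1% rose and 27.9% fell with dox in siControl cells. With siMyc and dox 37.7% were called up and 37.1% down, and with siGcn5 and dox 31.4% and 24.9%. Some list genes, such as Ly6g6c, Dmkn and Krt14, reached 1 RPKM only with dox, so the filter favoured their rise. Of 22 tested envelope, desmosome and corneocyte genes outside the rule, 20 rose and 2 fell with dox in siControl cells (median log2 2.19, beside 0.17 over all genes), among them Ly6g6c (5.70) and Dmkn (5.65). With siMyc and dox 15 were higher than in siControl cells and 3 lower (median 0.67, beside 0.02), led by Crnn (2.80) and Sfn (1.93), and with siGcn5 and dox 10 were higher and 9 lower (median 0.26, beside 0.05). Crnn, Tchh and Dsc3 passed the filter through the siMyc libraries with dox alone, so their direction with siMyc and dox was fixed. The same holds for Lipn and Krt15 in the next lists. Casp14, of the barrier lipid and corneocyte protease list, passed the filter through the siGcn5 libraries with dox alone. Its direction with siGcn5 and dox was fixed too, at 3.43 and 2.86 RPKM against 0.461 and 0.322 RPKM in siControl cells with dox. Of 14 tested barrier lipid and corneocyte protease genes, 10 rose and 1 fell with dox in siControl cells (median 1.89). In that list 7 were higher and 2 lower with siMyc and dox (median 0.31), led by the ceramide synthase gene Lass3 (2.48), and 1 was higher and 7 lower with siGcn5 and dox (median -0.32), among them the lipoxygenase gene Alox12b (-1.22) and Asprv1 (-1.34). Of 9 tested epidermal keratins 8 rose with dox in siControl cells (median 5.69), and with siMyc and dox 4 were higher and 2 lower (median 0.15), led by Krt80 (2.24). With siGcn5 and dox 1 keratin was higher and 2 were lower (median -0.16). Krt14, a basal keratin, had 1005 and 904 RPKM in siMyc cells with dox, against 357 and 311 RPKM in siControl cells with dox. Krt5, of the same list, had 0.411 and 0.575 RPKM in siMyc cells with dox and 0.566 and 0.502 RPKM in siControl cells with dox, and was not tested. The keratins that were lower with siMyc were Krt6a (-1.42) and Krt1 (-1.15), a suprabasal keratin. Krt6a had 23.9 and 38.7 RPKM in siMyc cells with dox and 78.2 and 88.7 RPKM in siControl cells with dox.

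Of 14 tested regulators of epidermal differentiation 7 rose and 5 fell with dox in siControl cells (median log2 0.56), where 46.1% of all tested genes rose and 27.9% fell. With siMyc and dox 7 were higher and 3 lower than in siControl cells (median 0.25), where 37.7% of all tested genes were called up and 37.1% down. These counts only describe the listed genes. Grhl3, a Grainyhead-like factor of barrier formation, rose with dox by log2 3.47 in siControl cells and was higher with siMyc by 0.58. Klf4, a barrier regulator that is also 1 of the reprogramming factors, rose with dox by 3.02 in siControl cells, where reads of a transgene cannot be told apart. Jag1 and Notch1 were lower with dox in siControl cells, at means of 9.43 and 2.30 RPKM with dox and 18.9 and 3.91 RPKM without. Trp63, of the same list, stayed at or below 0.0516 RPKM in every library and was not tested. Zfp750 (-1.10) and Cebpa (-1.52) were lower with siMyc and dox. With siGcn5 and dox 5 regulators were higher and 3 lower (median 0.19), beside 31.4% up and 24.9% down over all tested genes.

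Shares of all called genes that were up depended on how libraries were scaled, and values above use RPKM as deposited. For dox in siMyc cells the share was 64.5% as deposited, 52.4% after median-ratio scaling and 40.2% after quantile normalization. For dox in siGcn5 cells it was 61.6%, 47.4% and 43.0% in that order of scaling, and for dox in siControl cells 62.3%, 53.1% and 49.9%. For siGcn5 without dox it was 64.4%, 49.3% and 54.0%, for siGcn5 with dox 55.8%, 43.8% and 48.7%, and for siMyc against siGcn5 with dox 41.4%, 52.8% and 46.1%. The median log2 change of all genes for dox in siControl cells was 0.17 as deposited, 0.05 after median-ratio scaling and -0.00 after quantile normalization. For siGcn5 without dox the medians were 0.11, 0.00 and 0.04 in that order. They were 0.08, -0.00 and -0.08 for dox in siMyc cells and 0.08, -0.03 and -0.07 for dox in siGcn5 cells. Among members called for dox, Lce1f and Serpinb7 in siControl and siGcn5 cells were those whose direction turned under a scaling, in both genes after quantile normalization.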

How the data were processed

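The deposited tables give RPKM per gene symbol for each of 12 libraries, 2 in each of 6 groups taken from the labels. The submitters' processing notes name TopHat2 2.0.9, Bowtie 0.12.8, HTSeq, edgeR, affy and build mm9. For their roles, the annotation and the use of strand, nothing is stated in the notes or labels. The members and gene lists were chosen with earlier results of these data known.

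Differences were fitted with limma 3.58.1 in R 4.3.3 on log2(RPKM + 1), with trend, 1 mean per group and all 12 libraries, over the 13175 genes that reached an RPKM of 1 in 2 or more libraries. P-values were adjusted by Benjamini-Hochberg over all of them, with 6 residual degrees of freedom and 4.17 from the prior. The scripts were tested on simulated data. Every member that passed that filter is named, as are members at 1 RPKM or more in 1 library. Of each other list, members called with a large change are named.

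RPKM steps gave whole reads for 20788 genes with a value above 0, all of them within 0.05 read. These reads set depth and the floor of 3 reads per library, and served voom as an alternative. Intervals from reads would cover counting error only. Replicates of a group had Spearman correlations of 0.986 to 0.988 and chi-square statistics between 32.2 and 88.3 per degree of freedom, more than sampling noise gives. Alternatives were a pseudocount of 0.1, no filter, a filter on the mean, median-ratio scaling, quantile normalization, voom, a replicate block, a fit of only the groups compared, and leaving out each library.

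Same-numbered libraries of different groups deviated together by correlations of 0.0933 to 0.489 over 15 pairs of groups, 14 of them over 0.1. The labels state no pairing by number, so the main fit left the numbers out and kept this shared deviation in its spread. The replicate block is the alternative that takes the numbers in. Whether libraries of 1 number shared a batch was not tested. Promoters were matched by symbol to RefSeq on GRCm38.p6, and no coordinate was moved between that build and mm9.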

Additional observations from a re-analysis of the deposited data

Results flagged for a closer look

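The response to dox differed between siMyc and siControl cells for 27 members, by a limma interaction term (adjusted p under 0.05). Over all tested genes that term was called up for 24.8% and down for 29.3%. Klk9, Lce1f, Serpinb1b, Serpinb7 and Serpinb9e had passed the filter through the siMyc libraries with dox alone, which favoured a positive term. Each value is the log2 change with dox in siMyc cells minus that in siControl cells. Among envelope and adhesion genes it was 3.34 for Cdsn, 2.82 for Cnfn, 1.72 for Sprr3, 1.20 for Lce1h and 0.31 for Lce1f. It was negative for Sprr1b (-2.25), Krtdap (-0.91), Tgm1 (-0.87), Dsc1 (-0.87) and Tgm3 (-0.37).

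Among proteases it was 2.52 for Klk7, 1.79 for Klk15, 1.71 for Klk13, 1.13 for Klk5, 0.91 for Klk9, 0.84 for Klk8, 0.83 for Klk12 and 0.57 for Klk14, and -2.32 for Tmprss11bnl. The direction of Klk14 turned with a pseudocount of 0.1 (-0.11) and with voom (-0.25), and that of Klk12 with voom (-0.63). Among serpins it was 1.03 for Serpinb9b, 0.88 for Serpinb7, 0.62 for Serpinb6c, 0.56 for Serpinb6a, 0.55 for Serpinb9e and 0.44 for Serpinb1b, and -0.71 for Serpinb5 and -0.80 for Serpinb2. The direction of Serpinb6c turned with a pseudocount of 0.1 (-0.34) and with voom (-0.83).

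Over all tested genes, the same kind of term for siGcn5 was called up for 11.4% and down for 14.5%. By that term the response to dox also differed between siGcn5 and siControl cells for 16 members. It was larger in siGcn5 cells for Serpinb6c (1.31), Serpinb1a (1.23), Klk15 (0.84) and Serpinb6a (0.49). It was smaller for Klk14 (-1.98), Klk7 (-0.99), Tmprss11bnl (-0.99), Slurp1 (-0.97), Klk6 (-0.87), Krtdap (-0.77), Ivl (-0.73), Lce3c (-0.62), Cnfn (-0.60), Klk5 (-0.58), Serpinb8 (-0.55) and Klk13 (-0.50). The direction of Slurp1 turned with voom (0.059). With voom on recovered reads 8 of the 27 and 6 of the 16 kept their call. No sample was set apart as an outlier within its group, since each group holds 2 libraries and was not tested for that.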

How the results depend on the processing

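Of 261 called values of members, 184 lost neither call nor direction under any setting in which the member was tested. The settings were the 8 alternatives and leaving out each library in turn. A member that failed the filter of a setting was not tested there. The filter on the mean left 186 of the 261 values to test, the fit of only the groups compared 230, and leaving out siMyc dox replicate 1 or 2 left 228 or 231. Counted once per value and setting, a call was lost 262 times and a direction turned 10 times. Without a filter on low values 93 members were tested, and the counts called were 57 for dox in siMyc cells, 59 for siMyc against siControl with dox and 53 for siMyc against siGcn5 with dox. With a filter on the mean RPKM 28 members were tested and 24 were called for dox in siMyc cells. Fitting only the groups compared called 21 for dox in siGcn5 cells and 8 for siMyc against siControl without dox. Voom called 10 members for the interaction of siMyc and dox and 6 for that of siGcn5 and dox. The causes were not tested.

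Leaving out 1 library gave 31 to 37 calls for dox in siMyc cells, 29 to 33 for dox in siGcn5 cells, 31 to 36 for dox in siControl cells, 6 to 13 for siMyc and 6 to 10 for siGcn5 without dox, 29 to 36 for siMyc and 16 to 23 for siGcn5 with dox, 27 to 35 for siMyc against siGcn5 with dox, and 19 to 29 and 9 to 17 for the interactions of siMyc and of siGcn5 with dox.

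The replicate block called 37, 36 and 38 members for dox in siMyc, siGcn5 and siControl cells, 14 and 12 for siMyc and siGcn5 without dox, 38 and 24 with dox, 35 for siMyc against siGcn5, and 32 and 20 for the interactions of siMyc and of siGcn5 with dox. No call was lost under it. The shared numbers give no pairing by design.

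Quantile normalization turned Lce1f (-0.086) and Serpinb7 (-0.068) for dox in siControl cells and Lce1f (-0.0045) and Serpinb7 (-0.061) for dox in siGcn5 cells. In the interaction of siMyc and dox, Klk14 turned with a pseudocount of 0.1 (-0.11) and voom (-0.25), Serpinb6c with the same settings (-0.34 and -0.83), and Klk12 with voom (-0.63). In that of siGcn5 and dox, Slurp1 turned with voom (0.059).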
